A study of Callithrix jacchus with 3 samples.

Results

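The 200 genes described here are those of the common marmoset (Callithrix jacchus) whose symbol is ZNF followed by a number of 3 digits, with or without a final letter, and which had at least 10 counts summed over 3 RNA sequencing libraries. They were picked by symbol and count sum from the 30811 gene rows of the deposited files, of which 12660 have a symbol in the name table used. In all 202 rows carried such a symbol, and 2 of them, ZNF366 and ZNF804B, fell under the count minimum. The name table holds 315 entries with such a symbol, and those that match no row are not covered here. The libraries form 1 group of cells that the submitters call extended pluripotent stem cells and, in the design text, EPSC-like. The series title says that embryonic stem cells of the marmoset were the starting point. The labels give no genotype, sex, medium, passage or line beyond a title prefix that all 3 share, and the group has no parental or control cells. The libraries may therefore stem from 1 line, and no label says that they came from separate cultures.

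Most proteins named ZNF carry arrays of zinc fingers of the classical cysteine and histidine type, short loops that hold a zinc ion and read DNA, and in some cases RNA. Many also carry a KRAB domain, which recruits the corepressor TRIM28. TRIM28 in turn brings in histone methyltransferases, heterochromatin proteins and deacetylases, and in embryonic stem cells this machinery silences transposable elements and protects imprints. The family grew by tandem duplication, so its genes often lie side by side and resemble each other, and ZNF symbols also cover genes with quite different roles in splicing, translation or mitosis.

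Total counts were 52327369, 55224475 and 40593244 in replicates 1, 2 and 3. Levels are given as CPM, counts per 1000000 counts after TMM scaling, with no correction for gene length, so the order of levels among genes also reflects transcript length. Zero counts allow up to 0.0573, 0.0546 and 0.0736 CPM in the 3 libraries (3 counts, counting error only). How the authors treated reads that map to several places is not given in the sources used here, and levels of closely related ZNF genes are uncertain for that reason, as are those of overlapping and antisense genes. The pluripotency genes POU5F1, NANOG and SOX2 stood at 1044 ± 122, 330 ± 17.2 and 245 ± 17.7 CPM (SD, n = 3). Replicate 3 stood apart from the other libraries, and many values are therefore given for each library. Where a mean and SD alone are given, a shift of replicate 3 may be part of that SD.

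Most ZNF genes that passed the count minimum were above 1 CPM. All 200 had at least 1 count in every library, which the minimum of 10 summed counts itself makes likely. Of them 179, or 89.5%, were called above 1 CPM (edgeR quasi-likelihood F statistic, adjusted p under 0.05). By the same test 56% of all 23432 genes with a count were above the level, and 82.8% of the 11517 genes that have a symbol and at least 10 counts. Another 12 members, or 6%, were called below 1 CPM, against 37.8% of all genes tested and 11.3% of the genes with a symbol and 10 counts. The other 9, from ZNF571 at a mean of 1.43 CPM down to ZNF648 at 0.561 CPM, were not distinguished from 1 CPM. With DESeq2 in place of edgeR the calls of ZNF546 and ZNF624 below the level were lost (adjusted p = 0.103 and 0.0722), as was that of ZNF575 above it (adjusted p = 0.062). In bulk RNA, fewer cells that express a gene and less RNA per cell cannot be told apart. The comparison with genes of the same count minimum is the closer one, since the minimum itself removes rows of very low level.

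The spread of ZNF levels was narrower at both ends than that of all genes with a symbol, and the middle of the distribution lay lower. The median ZNF gene had a mean level of 14.7 CPM, against 20.1 CPM for all genes with a symbol and 10 counts. The ZNF genes ran from 6.35 CPM at the 25th percentile to 33.9 CPM at the 75th, and all genes with a symbol from 3.55 to 61.2 CPM. On the log2 scale these middle ranges are 2.42 and 4.11 units wide. At the 10th and 90th percentiles the ZNF genes stood at 1.39 and 66.1 CPM, and all genes with a symbol at 0.479 and 143 CPM.

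By class of level, 15 ZNF genes (7.5%) had a mean under 1 CPM, 62 (31.0%) lay from 1 to 10 CPM, 114 (57.0%) from 10 to 100 CPM and 9 (4.5%) at or over 100 CPM. Of all genes with a symbol, 14.7% lay in the lowest class, 23.0% and 47.1% in the middle classes and 15.2% in the highest. Only 5 ZNF genes were among the top 10% of genes with a symbol, which starts at 143 CPM, and 26 were in the top 25%. At the other end 10 were in the lowest 10% and 37 in the lowest 25%. No test was made of these differences in distribution.

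**Figure D1:**
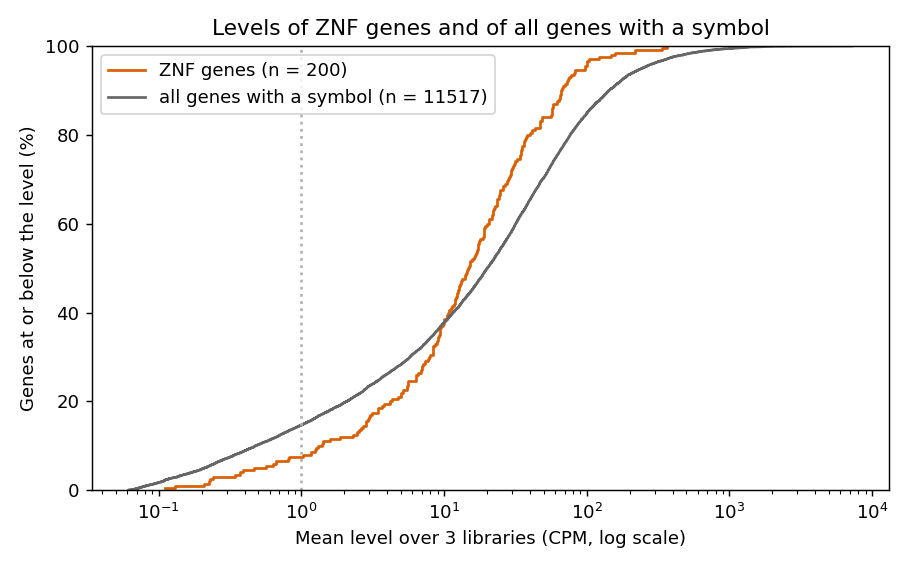
Cumulative share of genes (vertical axis, percent) at or below a mean level over the 3 libraries (horizontal axis, CPM, log scale) for the 200 ZNF genes and for all 11517 genes with a symbol and at least 10 counts. The dotted line marks 1 CPM, and the ZNF curve rises more steeply, with 15 ZNF genes under 1 CPM and 9 at or over 100 CPM.

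The lower middle of the distribution was seen in each library. The median ZNF level was 3.93, 3.89 and 3.80 on the log2 CPM scale in replicates 1, 2 and 3, against 4.37, 4.38 and 4.21 for all genes with a symbol. The ZNF median minus the median of all such genes was −0.45 ± 0.04 log2 units (SD, n = 3), and −0.25 with no minimum of 10 counts. Together the 200 genes took 0.581%, 0.582% and 0.556% of all counts in the 3 libraries. The 5 most abundant accounted for 22.2%, 22.1% and 19.8% of the summed ZNF level, and the 15 most abundant for 38.6%, 38.6% and 36.0%.

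The 18 ZNF genes numbered with 1 or 2 digits had a median of 17.7 CPM, the 28 ZBTB genes, which pair the fingers with a BTB domain, 13.8 CPM, and the 15 ZSCAN and ZKSCAN genes, with a SCAN domain, 11.5 CPM. In replicates 1, 2 and 3 the ZBTB median was 3.92, 3.97 and 3.04 on the log2 CPM scale, so that it was lowest in replicate 3. The medians of the shorter-numbered ZNF genes were 4.11, 4.19 and 4.17, and those of the ZSCAN and ZKSCAN genes 3.58, 3.52 and 3.54. The most abundant genes of these families stood at 52.3, 112 and 189 CPM on average. From the 25th to the 75th percentile these families spanned 2.04, 1.62 and 1.35 log2 units. The members spanned 2.42 and all genes with a symbol and 10 counts 4.11. A middle range narrower than that of all genes with a symbol is therefore not particular to the 3-digit ZNF genes. Of the 3 families, 17 of 18, 24 of 28 and 14 of 15 genes were called above 1 CPM, beside the 82.8% given above for genes with a symbol and 10 counts. These differences between families were not tested.

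ZNF207 had the highest mean CPM of all members, a place that rests on replicate 3. Without that library its fitted log2 level was 8.45 and that of ZNF512 was 8.48. ZNF207 encodes a protein that binds microtubules and the checkpoint protein BUB3, helps to build the spindle and is spliced differently in human embryonic stem cells. Its level was 354, 345 and 388 CPM in replicates 1, 2 and 3, a mean of 362 ± 22.8 CPM (SD, n = 3). ZNF512 followed at 362, 356 and 293 CPM, and was lowest in replicate 3. These 2 had the highest means of all members.

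ZNF532, whose protein joins ZMYND8 in a chromatin complex with those of ZNF592 and ZNF687, stood at 232, 234 and 192 CPM. ZNF770 stood at 180, 187 and 106 CPM, so that replicate 3 was clearly below the other libraries. The oncogene ZNF217, whose product recruits CtBP corepressors, stood at 159, 169 and 115 CPM, again lowest in replicate 3. ZNF281, known in mouse embryonic stem cells as a repressor of Nanog that works with the NuRD complex, varied less, at 130, 120 and 117 CPM.

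ZNF462, a regulator of chromatin and neural development, stood at 115, 117 and 79.3 CPM. ZNF256 and ZNF527 had like means of 101 ± 4.08 and 101 ± 20.03 CPM (SD, n = 3), but ZNF527 was highest in replicate 3, at 124 CPM against 86.2 and 92.4 CPM in replicates 1 and 2. These made up the 9 members at or over 100 CPM.

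The remaining members of the 15 most abundant lay between 75.5 and 97.5 CPM. ZNF318, which governs the choice between IgM and IgD transcripts in B cells, stood at 97.5 ± 13.3 CPM, and ZNF608, a close relative of ZNF609, at 96.6 ± 11.8 CPM (SD, n = 3). ZNF687 stood at 83.3 ± 5.61 CPM. ZNF292, a gene mutated in neurodevelopmental disorders, stood at 81.2 ± 10.7 CPM. ZNF607 had the smallest SD of the 15, at 77.9, 76.8 and 79.8 CPM. ZNF451, which encodes a SUMO ligase, stood at 75.5 ± 7.02 CPM. Some neighbours in this order, ZNF256 and ZNF527 or ZNF318 and ZNF608, differ by less than the spread between libraries, while others, ZNF512 and ZNF532 among them, have levels that do not overlap.

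**Figure D2:**
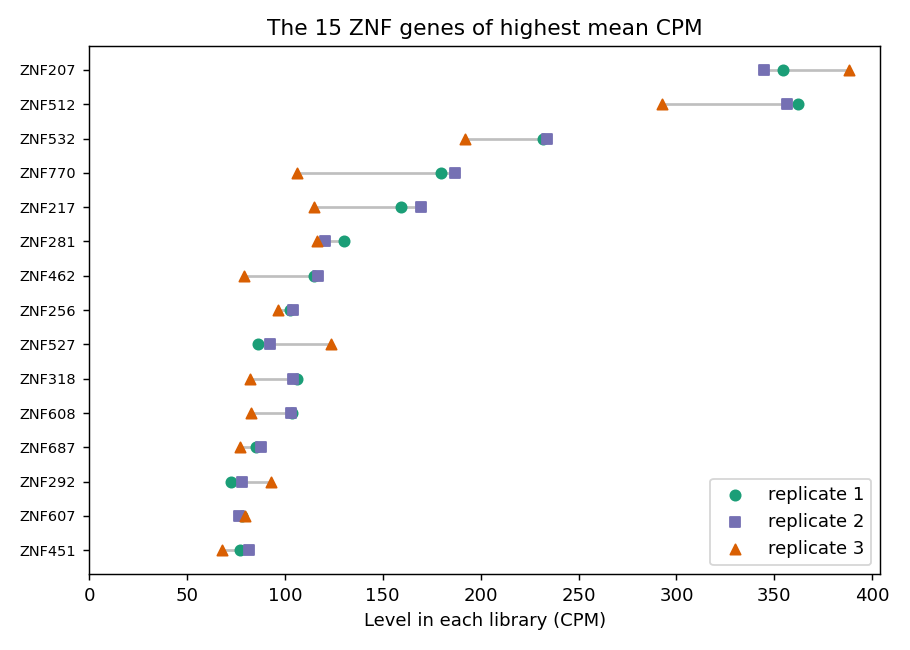
Level in each of the 3 libraries (horizontal axis, CPM, linear from 0) for the 15 ZNF genes of highest mean CPM, with 1 row per gene and a grey line over the range. ZNF207 and ZNF512 lie apart at 293 to 388 CPM, and ZNF770 shows the widest relative range, from 106 CPM in replicate 3 to 187 CPM in replicate 2.

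Of 11 genes listed for a link to pluripotency, 9 matched a row by symbol and were members. All 9 were called above 1 CPM, with a median of 35.0 CPM. That count, like those of the next 3 role lists, lies near the 89.5% of all members and the 82.8% of all genes with a symbol and 10 counts that were above the level, and says nothing particular about the list. Besides ZNF207, ZNF281, ZNF217 and ZNF462 they included ZNF143, an activator of small nuclear RNA genes and many other promoters, at 37.2, 35.8 and 31.9 CPM. ZNF398, which acts with SMAD3 in human pluripotent cells, stood at 34.4, 33.8 and 23.0 CPM and was lowest in replicate 3. ZNF322, an activator of Pou5f1 and Nanog in mouse cells, stood at 19.4 ± 2.75 CPM and ZNF296, a partner of Klf4 in mouse cells, at 15.1 ± 0.37 CPM (SD, n = 3). The lowest of the list was ZNF483, at 9.003, 8.51 and 3.60 CPM, with replicate 3 well below the others.

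Genes for parts or partners of chromatin and transcription complexes formed the largest role list. All 18 listed genes were members and all were called above 1 CPM, where 82.8% of all genes with a symbol and 10 counts were, with a median of 53.1 CPM. ZNF335, part of a histone methyltransferase complex and a microcephaly gene, stood at 54.8, 54.2 and 88.4 CPM, highest in replicate 3. ZNF609, a partner of Integrator and of the cohesin loader NIPBL, stood at 65.0 ± 10.2 CPM (SD, n = 3). ZNF644, which binds the histone methyltransferases EHMT1 and EHMT2, stood at 57.5 ± 4.80 CPM. ZNF384, a gene of recurrent leukaemia fusions, stood at 48.7 ± 1.57 CPM.

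Within the same list, ZNF827, which recruits NuRD to telomeres in some cancer cells, stood at 43.5 ± 5.65 CPM and ZNF131 at 39.7 ± 3.02 CPM (SD, n = 3). ZNF410, known for activating CHD4, was steady at 34.9, 35.9 and 37.3 CPM. The paralogs ZNF518A and ZNF518B stood at 54.6, 53.3 and 33.8 CPM and at 37.1, 35.3 and 15.9 CPM, both lowest in replicate 3. So was ZNF516, at 35.5, 36.3 and 20.5 CPM. ZNF711, an X-linked intellectual disability gene whose product works with the demethylase PHF8, stood at 13.0 ± 2.22 CPM. ZNF592 was the lowest, at 3.46, 3.04 and 1.13 CPM, against the means of 219 and 83.3 CPM of ZNF532 and ZNF687, whose products share its complex.

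Of 12 genes listed for roles on RNA or ribosomes, 6 matched a row by symbol and were members, and the others are not analysed here. All 6 were called above 1 CPM, near the share of 82.8%. After ZNF207 the list was led by ZNF346, which encodes a protein that binds double-stranded RNA, at 80.1, 79.3 and 62.2 CPM. ZNF326, part of the DBIRD complex that links splicing to transcription, stood at 65.9, 61.4 and 72.3 CPM. ZNF598, the ubiquitin ligase that marks collided ribosomes, stood at 58.1, 56.9 and 76.6 CPM, highest in replicate 3. ZNF330, which encodes a nucleolar protein, stood at 37.4 ± 1.67 CPM (SD, n = 3), and ZNF385A, which binds p53 and certain messenger RNAs, at 12.4, 10.8 and 6.57 CPM.

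Of 18 listed KRAB genes with a described function, 10 matched a row and were members. All 10 were called above 1 CPM, again near the share of 82.8%, with a median of 17.7 CPM. ZNF274, whose product directs SETDB1 to the 3' ends of other zinc finger genes, stood at 74.97, 70.9 and 71.95 CPM. ZNF263, which also carries a SCAN domain, stood at 48.8 ± 1.58 CPM and ZNF300 at 46.9 ± 7.99 CPM (SD, n = 3). ZNF445, which guards imprints in human and mouse embryos, stood at 33.6, 33.6 and 13.7 CPM, lowest in replicate 3. The others were ZNF746, ZNF382, ZNF189, ZNF133, ZNF202 and ZNF268, with means from 8.35 to 19.2 CPM.

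Genes listed for differentiated lineages were mostly low. The list was chosen with earlier results of these data known, so its low level is no independent result. It is also mixed, and for ZNF280A no lineage role is given here. Of 16 listed, 10 were members, with a median of 0.305 CPM. Only 3 were called above 1 CPM, 6 were below it and ZNF703 was not distinguished. Of all genes with a symbol and 10 counts, 82.8% were above the level and 11.3% below. The 3 above were ZNF423, a regulator of BMP responses, fat precursors and the cerebellum, at 21.6, 23.8 and 16.6 CPM, ZNF365, a centrosomal and genome stability gene, at 3.56, 3.31 and 3.46 CPM, and ZNF521, a gene of blood and neural progenitors, at 3.35, 2.78 and 1.18 CPM.

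The genes of this list below the level included ZNF750, a driver of epidermal differentiation, with 10, 12 and 11 counts, or 0.23 ± 0.04 CPM (SD, n = 3). ZNF536, a neural gene, had 20, 12 and 5 counts, and ZNF804A, a gene linked to schizophrenia, 10, 3 and 6. ZNF385B and ZNF385D had 8, 18 and 6 counts and 5, 5 and 6 counts. ZNF280A had 7, 32 and 16 counts, and without replicate 1 it was not distinguished from 1 CPM (adjusted p = 0.0506, edgeR quasi-likelihood). ZNF703, a breast cancer oncogene, stood at 0.65, 1.51 and 0.29 CPM, and was below the level without replicate 2 (adjusted p = 0.0427, edgeR quasi-likelihood). Such fits on 2 libraries ignore how much a single gene varied.

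**Figure D3:**
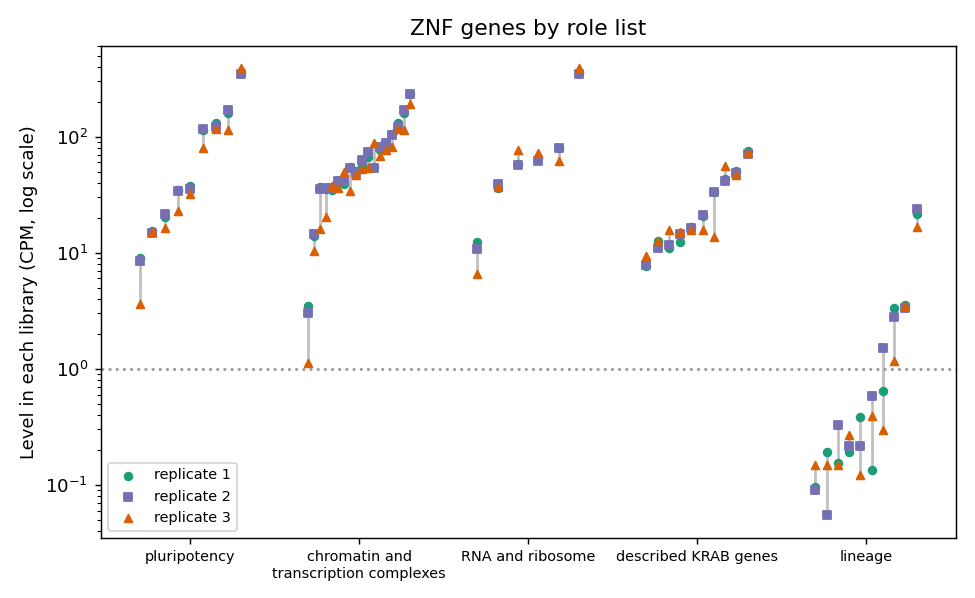
Level in each library (vertical axis, CPM, log scale) of the ZNF genes of 5 role lists, ordered by mean within each list, with grey lines over the range and a dotted line at 1 CPM. All members of the first 4 lists were called above 1 CPM, from ZNF592 at a mean of 2.54 CPM upward, while 6 of 10 lineage genes were called below it.

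The 5 members of lowest mean CPM were ZNF260, ZNF750, ZNF385B, ZNF804A and ZNF385D, from 0.23 down to 0.11 CPM. The 3 members nearest to the count minimum were ZNF385D with 16 counts in all, ZNF804A with 19 and ZNF385B with 32. The 2 rows outside it were ZNF366, a gene of dendritic cells, with 1, 6 and 0 counts, and ZNF804B with none in any library. Besides genes already named, those called below 1 CPM were ZNF546, ZNF624, ZNF683, ZNF467 and ZNF540, named because they complete the count. ZNF683 is a gene of tissue-resident lymphocytes and had 18, 24 and 25 counts.

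Among the 202 rows, 6 numbers were shared by genes that differ in the final letter, a grouping chosen after the values were seen. Besides the ZNF518, ZNF385 and ZNF804 genes, they were ZNF512 and ZNF512B with means of 337 and 17.3 CPM, ZNF354B and ZNF354A with 66.1 and 12.8 CPM, and ZNF280C and ZNF280A with 3.46 and 0.37 CPM. A shared number does not always mean close kinship, and these differences, which are not per length, were not tested.

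Of 33 genes listed for the KRAB corepressor pathway, 27 matched a symbol. All 27 were called above 1 CPM, where 82.8% of all genes with a symbol and 10 counts were, and their median was 107 CPM, against 20.1 CPM over all such genes. This list too was chosen with earlier results of these data known, so its high level is no independent result. TRIM28, the partner of KRAB domains, stood at 1687, 1707 and 1780 CPM. SETDB1, which methylates histones at its targets, and its cofactor gene ATF7IP stood at 98.6, 103 and 84.1 CPM and at 107, 113 and 61.9 CPM. The heterochromatin protein genes CBX3 and CBX5 stood at 225 ± 7.82 and 66.9 ± 6.45 CPM (SD, n = 3).

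Of the NuRD complex, CHD4 stood at 602 ± 57.9 CPM, HDAC2 at 544 ± 39.9 CPM and RBBP4 at 517 ± 7.95 CPM (SD, n = 3). Of the HUSH complex genes, which silence young transposons, MPHOSPH8 stood at 95.3 ± 13.2 CPM and PPHLN1 at 85.8 ± 1.75 CPM. TASOR, of the same complex, stood at 34.4, 33.0 and 20.4 CPM in replicates 1, 2 and 3, lowest in replicate 3. MORC2, which works with this complex, stood at 75.8 ± 4.0001 CPM. Among DNA methyltransferase genes DNMT3B stood at 2688 ± 54.8 CPM and DNMT3A at 339 ± 37.5 CPM. The maintenance enzyme gene DNMT1 stood at 10.5 CPM in replicate 3, against 24.5 and 24.3 CPM in replicates 1 and 2. SUV39H1, a histone methyltransferase gene, was the lowest of the list at 8.96 ± 1.01 CPM.

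Replicates 1 and 2 gave close ZNF levels and replicate 3 differed from both. A member was called different between a pair of libraries when an exact conditional binomial test on its counts passed at an adjusted p under 0.05 and the levels differed at least 1.5-fold. That test takes reads as independent, covers counting error only, and compares these libraries and no conditions. Between replicates 1 and 2, ZNF648 was higher in replicate 1, and ZNF703 and ZNF280A were lower, against 0.608% and 0.399% of genes with a symbol and 10 counts. With counts halved, none of these 3 calls remained. Between replicates 3 and 1, 10 members (5%) were higher in replicate 3 and 20 (10%) lower, against 4.7% and 15.3% of such genes. Between replicates 3 and 2 the counts were 12 higher (6%) and 18 lower (9%), against 5.02% and 15.5%. Both comparisons share replicate 3.

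The log2 ratios of replicate 3 to replicate 1 had an interquartile range of 0.58 over the ZNF genes and 0.66 over all genes with a symbol and 10 counts, and those of replicate 1 to replicate 2 one of 0.15 and 0.14. The median log2 ratio of replicate 3 to replicate 1 was −0.07 for the ZNF genes and −0.09 for all genes with a symbol and 10 counts. Over the 185 members that averaged 50 counts or more, the coefficient of variation over the 3 libraries had a median of 11.5%, against 12.5% over 9819 genes with a symbol and as many counts. The SD of the log2 ratio of replicate 3 to replicate 1 was 0.44 for these members and 0.53 for the wider set, and that of replicate 1 to replicate 2 was 0.13 and 0.14.

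**Figure D4:**
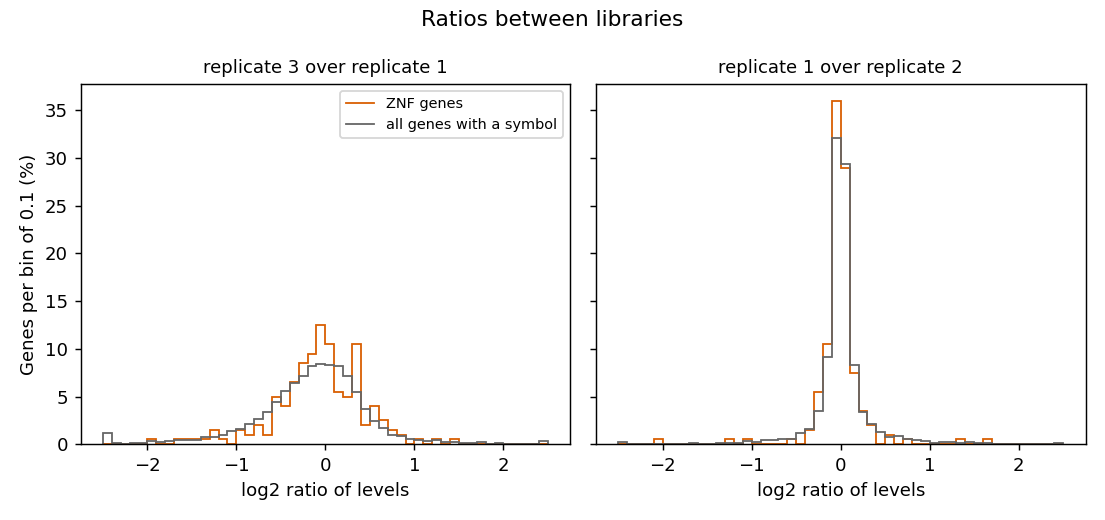
Share of genes (vertical axis, percent per bin of 0.1) by log2 ratio of levels (horizontal axis) of replicate 3 over replicate 1 (left) and replicate 1 over replicate 2 (right), for the ZNF genes and for all genes with a symbol, with values beyond the axis in the end bins. Ratios with replicate 3 spread wider, with an SD of 0.44 (left) and 0.13 (right) for ZNF genes that averaged 50 counts or more.

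The members that were highest in replicate 3 relative to both other libraries were chosen for that difference, and their ratios describe it. ZNF485 stood at 3.14 CPM in replicate 3, against 1.36 and 1.13 CPM in replicates 1 and 2, or log2 ratios of 1.21 and 1.47. Without replicate 3 ZNF485 was no longer distinguished from 1 CPM (adjusted p = 0.0783, edgeR quasi-likelihood), in a fit on 2 libraries that ignores how much a single gene varied. ZNF214 stood at 12.3 CPM in replicate 3, against 5.89 and 5.55 CPM. ZNF276 stood at 12.4 CPM, against 7.30 and 7.49 CPM, and ZNF517 at 33.4 CPM, against 20.4 and 19.3 CPM. ZNF335, described above, was the fifth.

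At the other end, ZNF467 had 5 counts in replicate 3, against 26 and 30 counts in replicates 1 and 2, or log2 ratios of −1.91 and −2.04. ZNF592 had 46 counts, against 181 and 167, with log2 ratios of −1.61 and −1.42. ZNF445 had 557 counts, against 1757 and 1847, with log2 ratios of −1.30 in both comparisons. ZNF483 had 147 counts, against 471 and 468, and ZNF521 had 48 counts, against 175 and 153.

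**Figure D5:**
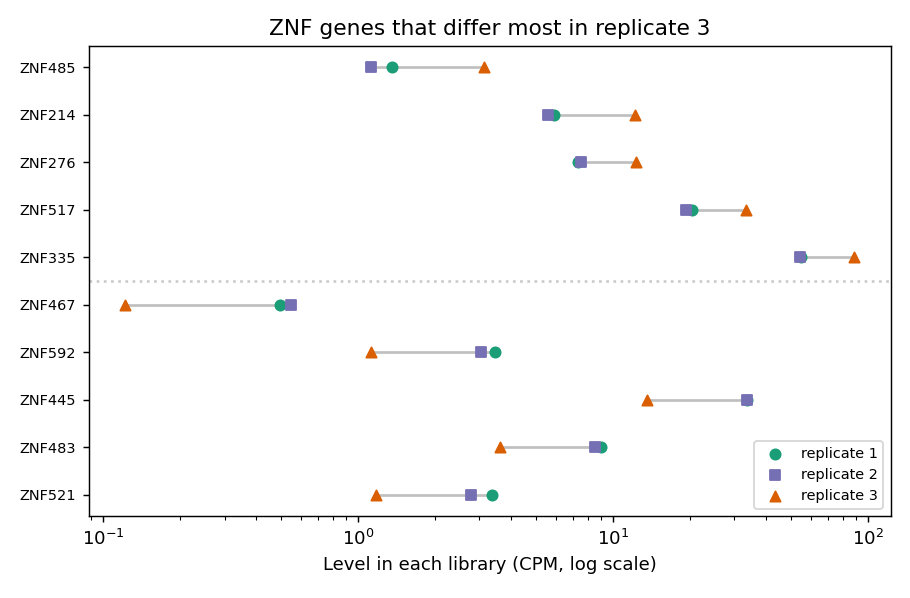
Level in each library (horizontal axis, CPM, log scale) for the 5 ZNF genes most raised (above the dotted line) and the 5 most reduced (below it) in replicate 3 relative to both other libraries, chosen for that difference. Replicates 1 and 2 lie close together for each gene, and ZNF467 ranges from 0.12 CPM in replicate 3 to 0.55 CPM in replicate 2.

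Of the 27 corepressor genes, 1 was called higher and 3 lower in replicate 3 when set against replicate 1. Against replicate 2 these counts were 1 and 4. Over all genes with a symbol and 10 counts the shares were 4.7% and 15.3%, and 5.02% and 15.5%, so these counts lie near the background. CHD3 was the higher one, at 115 CPM against 72.4 and 68.2 CPM in replicates 1 and 2. ATF7IP, TASOR and DNMT1 were lower than in either other library, and EHMT1 was lower than in replicate 2. Of the 18 chromatin genes, 1 was called higher (ZNF335) and 4 lower (ZNF516, ZNF518A, ZNF518B and ZNF592) in each of the 2 comparisons, to be read against the same shares. In the other lists ZNF483, ZNF385A, ZNF445, ZNF521 and ZNF703 were called lower in both, and ZNF280A was called higher than in replicate 1 alone. No label names a difference in handling between the libraries, and what replicate 3 differs in was not tested.

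By gene order in the RefSeq annotation of the assembly calJac240_pri, used here for neighbours alone, 190 of the 200 members matched by symbol. Of these 63, or 33.2%, had another 3-digit ZNF gene as the next protein-coding gene on at least 1 side. The longest run of such genes in a row that held members had 8, 3 of them members, namely ZNF570, ZNF569 and ZNF527, at 23.5, 12.4 and 101 CPM. In 18 pairs both neighbours were members. Levels within these pairs differed by a median of 1.53 log2 units, against 1.90 over all pairs of members. The log2 ratios of replicate 3 to replicate 1 differed by a median of 0.38 within pairs, against 0.42 over all pairs, and had the same sign in 10 of 18. No test was made of these differences.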

How the data were processed

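Each of the 3 RNA sequencing libraries, replicates of 1 group, has 1 file. The submitters' processing notes name featureCounts (version 1.5.2), Trim Galore (version 0.4.0) and, STAR (version 2.5.3a). The authors deposited raw counts, whole numbers for each Ensembl gene. Build, annotation release, strand setting and handling of shared reads: not given in the sources used here.

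TMM factors came from edgeR (4.0.16, under R 4.3.3). Genes with at least 1 count (23432) were tested two-sided against 1 CPM with a quasi-likelihood F statistic. The model has an intercept alone and trended dispersion, no p-value may fall below the Poisson one where a gene's estimated variance is under the Poisson variance, and p-values are Benjamini-Hochberg adjusted over these genes. They reflect the variation among these libraries alone, which may be technical. Pairs of libraries were compared by an exact conditional binomial test (two-sided, doubled smaller tail, adjusted over the same genes), with log2 ratios on a prior count of 0.5. Median levels use log2 CPM with the same prior. Scripts were tested on simulated data. The members, the role lists and the corepressor list were chosen with earlier results of these data known. Genes named by rule are the 15 highest and 5 lowest members, the 3 nearest the count minimum on each side, the 5 most different in replicate 3 each way among those called in both of its comparisons, and the role lists. Alternatives were DESeq2 (1.42.0) size factors and Wald test, with size factors of geometric mean 1, other count minimums, levels and priors, no minimum fold, halved counts and each replicate left out. Figures used matplotlib (3.10.9).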

Additional observations from a re-analysis of the deposited data

How the results depend on the processing

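The count of members above 1 CPM (179) stayed between 172 and 186 under the alternatives run, and the 27 corepressor genes were above the level in each of them. Leaving out 1 replicate gave 177 to 180 members above and 8 to 13 below, 27 corepressor genes above, ZNF medians of 3.84 to 3.91 log2 CPM and differences from all genes with a symbol of −0.46 to −0.43. Fits on 2 libraries ignore how much a single gene varied. Members below 1 CPM, 12 in the report, were 5 among genes passing filterByExpr, which removes low genes by construction, and 5 and 21 with the level set at 0.5 and 2 CPM. With no minimum of 10 counts, the ZNF median lay −0.25 log2 units from that of all genes with a symbol and a count. That setting added ZNF366 alone to the ZNF genes, and their median was 3.86 log2 CPM, against 3.87 in the report. The smaller difference came mostly from low genes added to the wider set, so its size depends on how that set is filtered. With no minimum fold, 119, 125 and 18 of the 200 members differed between replicates 3 and 1, 3 and 2, and 1 and 2. Of the 11517 genes with a symbol and 10 counts, 7486, 7534 and 1095 did, so the member counts show nothing particular to ZNF genes. With halved counts, as if both mates of a pair had been counted, 0 members differed between replicates 1 and 2 by the exact binomial test. Of 434 calls of the 63 members named by rule, 431 were the same as in the report. The setting with no minimum of 10 counts uses the fit of the report, so its 63 calls could not change. Named members that filterByExpr removed, all called below 1 CPM in the report, are not counted under that setting. The share of unchanged calls is therefore no full measure of stability. The changed calls of ZNF280A, ZNF703 and ZNF485 are given there. ZNF546, ZNF624 and ZNF575, named there for calls lost with DESeq2, are not among the 63. Levels per length were not run, since exon lengths were not at hand, and genes of few counts are the least certain. No paired analysis was possible because all libraries form 1 group.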
